A study of Mus musculus with 8 samples.

Results

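The genes described here are those of cytochrome P450 families 1 to 4, taken as every gene whose symbol has the root Cyp, a family number from 1 to 4, 1 subfamily letter and a member number, and that reached at least 50 UMIs (unique molecular identifiers, each marking 1 captured RNA molecule) over 8 mouse livers. Of 32285 genes counted, 75 had such a symbol and 59 in 18 subfamilies reached the count. Just above it lay Cyp2j13 with 68 UMIs and Cyp4f39 with 53, and just below it Cyp2g1 with 44, Cyp2d34 with 38 and Cyp3a57 with 36. All 59 are annotated as protein coding. Cytochrome P450 enzymes are haem proteins of the endoplasmic reticulum that put an oxygen atom into their substrates, with electrons passed on by the reductase Por and by cytochrome b5. Families 1 to 3 oxidise drugs, toxins, steroids and other lipids in the liver, and family 4 mainly hydroxylates fatty acids and eicosanoids. In the healthy lobule many of these genes are most active in hepatocytes around the central vein, and several in mice also differ between the sexes under the pattern of growth hormone release.

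The livers came from male DIAMOND mice, a cross labelled 129A1/SvIm and C57BL/6J, which develop fatty liver disease and tumours on a Western diet of high-fat food and sugared water. Mice of the RD no tumour group (n = 3) and the RD tumour group (n = 2) ate the Western diet for 36 weeks and standard chow thereafter, and hepatocellular carcinoma was found only in the latter. The WD tumour group (n = 3) was kept on the Western diet for 48 weeks and carried such tumours. There is therefore no group that never ate the Western diet, and no tumour-free group on continued Western diet, and the labels do not say whether the frozen piece that was sequenced held tumour. The labels put the end of the study at 48 weeks of age, which does not match a diet begun at 2 months, so age is not used. Whole libraries held 17948627 to 34363108 UMIs over 6048 to 20000 nuclei with at least 300 genes. RD tumour 1 stood apart: it had exactly 20000 such barcodes, the lowest P450 share, and macrophage and neutrophil transcripts spread over its droplets.

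Levels are given as CPM, the UMIs of a gene per 1e6 UMIs of the same sum. Hepatocyte nuclei were gated in each mouse by markers of the lobule zones, none of them a P450 gene: 12 pericentral markers such as Glul, Slc1a2 and Oat, and 13 periportal markers such as Sds, Hal and Hsd17b13. This gave 226 to 725 pericentral nuclei per mouse, but 68 in RD tumour 1, and 536 to 1272 periportal nuclei. Some pericentral markers are targets of Wnt signalling, so a tumour nucleus with that programme cannot be told apart from a pericentral one. The hepatocyte-gated sum of a mouse holds both zones, in a mix that differed between mice. Pericentral nuclei were fewest in RD tumour 1, with 68 of 816 hepatocyte-gated nuclei, and made up the largest part in RD tumour 2, with 588 of 1377. The sum was not adjusted for this mix, so levels of zoned genes in it also carry the mix. Nuclei with too few marker counts to be gated ranged from 38.6% (RD no tumour 2) to 93.5% (RD tumour 1) of a library. A list of 10 general hepatocyte genes (Alb, Apob and others) was counted in droplets of every class and did not separate hepatocyte nuclei, which is why the zone markers were used. For the 34 P450 genes with at least 1000 hepatocyte UMIs, the level in other gated classes had a median of 43.1% (neutrophil) to 66.3% (T/NK) of the hepatocyte level. Counts are from the 3′ end and are not scaled for gene length, so the level of one gene is not compared with that of another.

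The 59 genes together made up 0.474, 0.942 and 1.54% of all UMIs in RD no tumour 1, 2 and 3, 0.159 and 0.803% in RD tumour 1 and 2, and 1.16, 0.371 and 1.00% in WD tumour 1, 2 and 3. In hepatocyte-gated nuclei the shares were 0.674, 1.04 and 1.62%, 0.217 and 0.877% and 1.34, 0.481 and 1.11% in the same order. The groups overlapped in both measures, and in whole libraries the highest mouse of each group had over 3 times the share of the lowest. In a whole library, fewer hepatocytes and less RNA per hepatocyte cannot be told apart. The subfamilies Cyp3a, Cyp2c, Cyp2e, Cyp2d and Cyp4a held most of the counts, with Cyp3a25 (393685 UMIs over all libraries), Cyp2e1 (253225), Cyp2c38 (138677) and Cyp4a14 (93369) the most counted genes. Most subfamilies lie together on 1 chromosome (mouse build GRCm38, GENCODE M21): the 13 Cyp2c genes between 39007019 and 44029208 on chromosome 19, the 7 Cyp2d genes on chromosome 15, the 5 Cyp3a genes on chromosome 5, the Cyp2j, Cyp4a and Cyp4b genes on chromosome 4, and the Cyp2a, Cyp2b, Cyp2f, Cyp2s and Cyp2t genes between 25802475 and 27158668 on chromosome 7.

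Neighbouring genes can also share sequence, and a read from a shared stretch cannot be given to one gene. In the last 500 bases of each gene's longest transcript, 31 of 59 genes had at least 1 stretch of 50 bases that another gene of the Cyp name also holds, and 18 had at least 10% of such stretches in common. The share was 74.3% for Cyp2c40, 66.7% for Cyp4a32, 51.2% for Cyp2c67 and Cyp2c68, 44.4% for Cyp2a4 and 38.4% for Cyp2c69. The values of these genes are uncertain, whereas Cyp2c38, Cyp2f2, Cyp2b9, Cyp2c50, Cyp2c70 and Cyp1a2 had no shared stretch in their own last 500 bases. The search was made against whole transcripts, so stretches at the end of one gene can lie elsewhere in another. They were in transcripts of Cyp2c50 for 21.1% of those of Cyp2c37, and in transcripts of Cyp2c38 for 12% of those of Cyp2c39.

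The most counted gene of each subfamily shows how the mice differed. In hepatocyte-gated nuclei Cyp2c38 stood at 405, 785 and 2029 CPM in RD no tumour 1, 2 and 3, 24.7 and 794 in RD tumour 1 and 2, and 1573, 531 and 1098 in WD tumour 1, 2 and 3. RD tumour 1 was far below the rest, followed by RD no tumour 1 and WD tumour 2, and the 3 groups overlapped. Cyp2d26, the most counted Cyp2d gene, stood at 299, 323 and 413 CPM in RD no tumour 1, 2 and 3, 140.2 and 264 in RD tumour 1 and 2, and 444, 224 and 456 in WD tumour 1, 2 and 3, and both RD tumour mice were below the RD no tumour mice (-1.0 ± 0.46 SE on the log2 scale, edgeR adjusted p = 0.379). Cyp2j5, an epoxygenase of arachidonic acid, stood at 349, 638 and 545 CPM in RD no tumour 1, 2 and 3, 21.7 and 369 in RD tumour 1 and 2, and 483, 259 and 428 in WD tumour 1, 2 and 3, again with RD tumour 1 far below the rest. Cyp2a12 stood at 75.6, 109 and 182 CPM in RD no tumour 1, 2 and 3, 79.4 and 62.1 in RD tumour 1 and 2, and 197, 70.1 and 196 in WD tumour 1, 2 and 3, and Cyp4f15 at 177, 215 and 109 CPM in RD no tumour 1, 2 and 3, 31.7 and 208 in RD tumour 1 and 2, and 254, 119 and 222 in WD tumour 1, 2 and 3. In both, RD no tumour and WD tumour mice overlapped. Cyp4v3, a fatty acid hydroxylase, kept a narrow range of 44.4 to 81.5, both ends of it RD no tumour mice. Cyp2s1 and Cyp2t4 had 12 and 42 hepatocyte UMIs over the 8 mice, too few to follow. The other genes named by this rule are described with their comparisons.

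**Figure D1:**
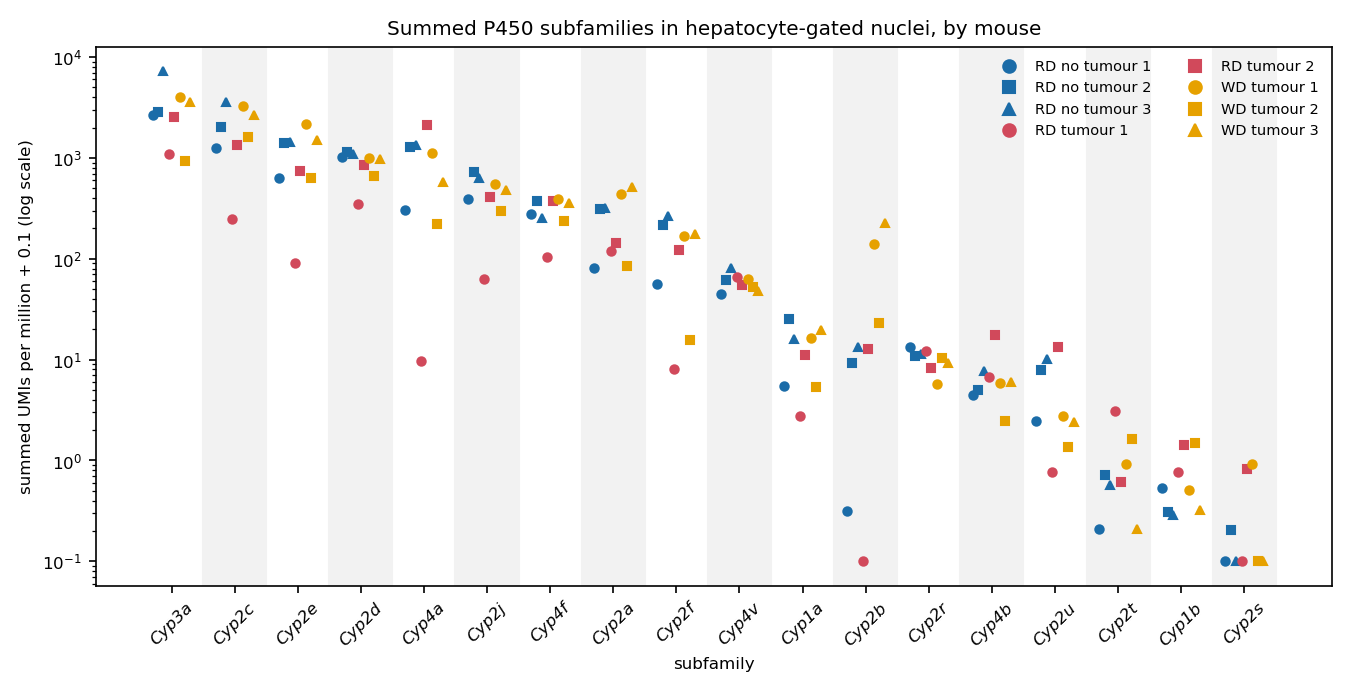
Summed CPM of each P450 subfamily in hepatocyte-gated nuclei (log axis, with 0.1 added so that 0 can be drawn), 1 point a mouse, coloured by group. RD tumour 1 (red circle) is the lowest mouse for Cyp2c, Cyp2e, Cyp2d, Cyp4a, Cyp2j, Cyp4f and Cyp2f, and the Cyp2b sum is highest in the 3 WD tumour mice.

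The first comparison asked which P450 genes differ between the pericentral and periportal ends of the lobule. Of the 45 genes with enough counts to test, 30 were called: 20 higher in pericentral nuclei and 10 higher in periportal nuclei (edgeR quasi-likelihood test, mouse as block, adjusted p under 0.05 over 12457 genes). Over all genes tested, 6.74% were called pericentral and 7.84% periportal, 14.6% in all. The median log2 fold change (pericentral minus periportal) was 1.65 among the called pericentral genes and -0.82 among the called periportal genes. Of the pericentral genes 11 were higher on that side in 8 of 8 mice, and of the periportal genes 2, Cyp3a13 and Cyp2j9. In 12 of the other 17 called genes RD tumour 1, whose pericentral sum came from 68 nuclei, was the only mouse on the other side, and without it 29 of the 30 calls were kept. In that mouse Cyp2j9, Cyp2c69, Cyp2c39, Cyp3a59 and Cyp2j11 had 0 pericentral UMIs, too few to give a direction there. Under every alternative run 22 of the calls were kept. The other 8 were Cyp3a59, Cyp2j11, Cyp4a14, Cyp4f17, Cyp2d26 and Cyp2j8, and also Cyp2c69 and Cyp2u1, which had too few counts to be tested without some mice. None changed direction. Cyp3a59 lost its call without RD no tumour 2, RD tumour 2, WD tumour 1 or WD tumour 3. Cyp4a14 lost it without any 1 RD no tumour mouse, WD tumour 1 or WD tumour 3. Cyp4f17 lost it without RD no tumour 2 or RD tumour 2, and Cyp2d26 lost it without RD no tumour 1, RD tumour 2 or WD tumour 2. Cyp2j11 kept its call only without WD tumour 1 among these fits, and Cyp3a59, Cyp2j11 and Cyp4a14 were not called by DESeq2 (adjusted p = 0.404, 0.0825 and 0.0514). With no filter on low counts Cyp4f17 was not called (edgeR adjusted p = 0.0784). Cyp2d26 was not called with a zone gate that asked for 1 more marker UMI (edgeR adjusted p = 0.0557). Nor was Cyp2j11 with both zones of a mouse thinned to the same depth (edgeR adjusted p = 0.077). The remaining 14 of the 59 genes had too few gated counts to test.

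The Cyp2c subfamily, whose members oxidise steroids, retinoids, arachidonic acid and drugs, was largely pericentral: 10 of its 12 tested genes were pericentral, Cyp2c23 was periportal and Cyp2c70 was not called. Cyp2c38 stood at 1335, 2704, 5467, 22.4, 1755, 3873, 930.5 and 2821 CPM in the pericentral nuclei of the 8 mice (RD no tumour 1 to 3, RD tumour 1 and 2, WD tumour 1 to 3), against 67.7, 146, 451, 22.2, 173, 454, 174 and 400.5 in their periportal nuclei. It was far higher on the pericentral side in 7 mice, while in RD tumour 1 the sides stood level at 22.4 and 22.2, from 6 and 55 UMIs (log2 fold change 3.27 ± 0.25 SE, adjusted p = 3.33e-07). Cyp2c37 had 213 ± 159 CPM in pericentral and 40.7 ± 25.2 in periportal nuclei (SD, n = 8 mice), and was higher in pericentral nuclei of 8 of 8 mice (log2 fold change 2.35 ± 0.13 SE, adjusted p = 1.07e-08). Cyp2c69 had the largest difference of the tested genes (log2 fold change 3.47 ± 0.37 SE, adjusted p = 9.7e-06, 7 of 8 mice), from only 671 pericentral and 113 periportal UMIs. Cyp2c40 (log2 fold change 2.38 ± 0.28 SE, adjusted p = 2.95e-05) and Cyp2c39 (log2 fold change 2.38 ± 0.24 SE, adjusted p = 4.79e-06) followed, each higher in 7 of 8 mice, and Cyp2c29, a gene induced through the drug receptor CAR, was higher in 8 of 8 (log2 fold change 1.77 ± 0.19 SE, adjusted p = 9.89e-06). Cyp2c70, which makes the muricholic acids of mouse bile, had 243 ± 186 CPM in pericentral and 242 ± 175 in periportal nuclei (log2 fold change -0.15 ± 0.14 SE, adjusted p = 0.578). The other 11 tested Cyp2c genes were called.

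Among the other drug- and toxin-oxidising genes, Cyp2e1, which oxidises ethanol and paracetamol, stood at 1069.8, 2412, 3036, 344, 1028, 3209.8, 783 and 2503 CPM in the pericentral nuclei of the 8 mice (RD no tumour 1 to 3, RD tumour 1 and 2, WD tumour 1 to 3), against 462, 927, 726, 64.6, 523, 1673, 537 and 1081 in their periportal nuclei. Every mouse had more on the pericentral side (log2 fold change 1.29 ± 0.15 SE, adjusted p = 2.55e-05). Cyp1a2, the liver's main enzyme for caffeine and aromatic amines and a target of the Ah receptor, had 27.7 ± 15.2 CPM in pericentral and 6.55 ± 5.02 in periportal nuclei (SD, n = 8; log2 fold change 2.03 ± 0.21 SE, adjusted p = 6.51e-06, 8 of 8 mice). Cyp2a5, a coumarin hydroxylase, was higher in pericentral nuclei of 8 of 8 mice (log2 fold change 2.77 ± 0.29 SE, adjusted p = 8.76e-06), and so was Cyp3a11, a target of the drug receptor PXR (log2 fold change 1.94 ± 0.23 SE, adjusted p = 2.95e-05). Cyp2d9, a steroid hydroxylase, was also pericentral in 8 of 8 mice (log2 fold change 1.12 ± 0.11 SE, adjusted p = 5.15e-06). Genes of the Cyp3a subfamily parted: Cyp3a25 was not called (log2 fold change 0.14 ± 0.17 SE, adjusted p = 0.670, 5 of 8 mice pericentral), and Cyp3a13 was periportal in 8 of 8 mice (log2 fold change -0.81 ± 0.09 SE, adjusted p = 1.08e-05).

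Cyp2f2, which activates naphthalene, had the largest periportal difference. It stood at 5.43, 48.0, 62.8, 11.2, 54.2, 24.2, 2.15 and 21.9 CPM in the pericentral nuclei of the 8 mice (RD no tumour 1 to 3, RD tumour 1 and 2, WD tumour 1 to 3), against 74.3, 269.6, 363, 8.48, 180.3, 239, 28.8 and 243 in their periportal nuclei. The levels were lower in pericentral nuclei of 7 of 8 mice, RD tumour 1 being the exception with 11.2 against 8.48, from 3 and 21 UMIs, too few to give a direction (log2 fold change -2.71 ± 0.19 SE, adjusted p = 1.22e-07). The Cyp2j subfamily, epoxygenases of arachidonic acid, was mainly periportal, with 4 of 5 tested genes on that side: Cyp2j5 (log2 fold change -0.65 ± 0.08 SE, adjusted p = 5.5e-05), Cyp2j9 (log2 fold change -0.83 ± 0.13 SE, adjusted p = 0.000263), Cyp2j8 (log2 fold change -1.01 ± 0.29 SE, adjusted p = 0.0281) and Cyp2j6 (log2 fold change -0.35 ± 0.09 SE, adjusted p = 0.0115), while Cyp2j11 was pericentral (log2 fold change 0.68 ± 0.22 SE, adjusted p = 0.0492). The call for Cyp2j8 rested on 47 and 251 UMIs and was lost without RD no tumour 1, 2 or 3 or without RD tumour 2 (adjusted p from 0.0603 to 0.110). Cyp2u1, which hydroxylates long-chain fatty acids, and Cyp2a12 were periportal in 7 of 8 mice (log2 fold change -0.98 ± 0.21 SE, adjusted p = 0.00508 and log2 fold change -0.84 ± 0.18 SE, adjusted p = 0.00442). In the Cyp2a subfamily Cyp2a12 thus went the opposite way to Cyp2a5 and Cyp2a22.

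Of the 10 tested genes of family 4, mostly fatty acid hydroxylases, 2 were called between zones, a share near that of all genes (14.6%). Of 4 Cyp4a genes, targets of the fatty acid receptor PPAR alpha, 1 was called, Cyp4a14 (log2 fold change 0.47 ± 0.14 SE, adjusted p = 0.0392, pericentral in 7 of 8 mice), and of 4 tested Cyp4f genes 1, Cyp4f17 (log2 fold change 0.27 ± 0.07 SE, adjusted p = 0.0206). Cyp4v3 (log2 fold change 0.16 ± 0.08 SE, adjusted p = 0.190), Cyp4b1 (log2 fold change -0.25 ± 0.20 SE, adjusted p = 0.488), the vitamin D hydroxylase Cyp2r1 (log2 fold change 0.18 ± 0.15 SE, adjusted p = 0.516) and Cyp2b9 (log2 fold change -0.20 ± 0.36 SE, adjusted p = 0.802) were not called. Only pericentral and periportal gates were used, so a gene highest in the middle of the lobule would not be seen.

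**Figure D2:**
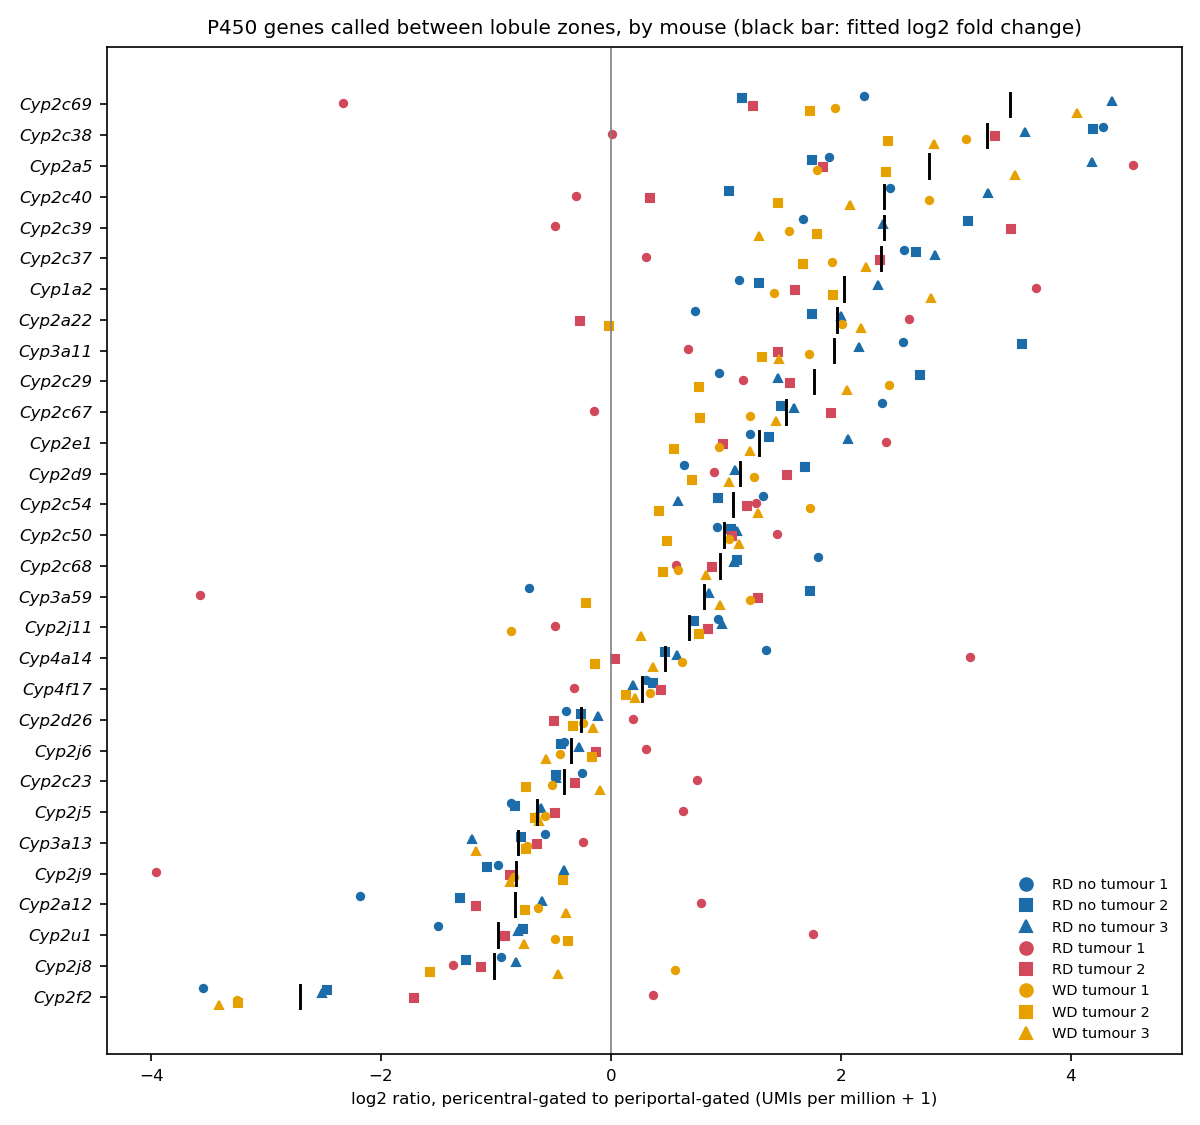
The 30 P450 genes called between zones, ordered by fitted log2 fold change (black bar). Points give each mouse's log2 ratio of CPM + 1 in pericentral-gated over periportal-gated nuclei, coloured by group. Points to the right of 0 are pericentral. RD tumour 1 (red circle) is often far from the other 7 mice, as for Cyp2c38, Cyp2c37, Cyp2f2, Cyp2u1 and Cyp2j9.

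The 250 bases before the RefSeq start site (build GRCm38.p6) are shown for Cyp2e1 and Cyp2c38, the most counted genes on the pericentral side, and for Cyp2f2, the steepest on the periportal side, so that the graded genes can be seen with their promoters. Capitals mark matches, on either strand, to a TATA box (TATAAA), the core of a TCF site (CTTTGA), the core of a nuclear receptor site (AGGTCA), the core of an Ah receptor site (GCGTG) and a STAT5 palindrome (TTCNNNGAA).
Cyp2e1 (chr7:140763569-140763818, plus strand): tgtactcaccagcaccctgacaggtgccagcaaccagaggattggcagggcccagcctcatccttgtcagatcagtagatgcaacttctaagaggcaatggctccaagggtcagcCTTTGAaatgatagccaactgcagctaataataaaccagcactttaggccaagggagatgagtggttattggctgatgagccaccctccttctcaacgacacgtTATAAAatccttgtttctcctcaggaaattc
Cyp2c38 (chr19:39463076-39463325, minus strand): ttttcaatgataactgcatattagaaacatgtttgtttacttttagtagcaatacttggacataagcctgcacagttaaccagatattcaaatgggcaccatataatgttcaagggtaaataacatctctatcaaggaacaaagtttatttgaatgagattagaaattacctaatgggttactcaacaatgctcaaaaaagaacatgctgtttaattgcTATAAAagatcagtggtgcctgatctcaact
Cyp2f2 (chr7:27119705-27119954, plus strand): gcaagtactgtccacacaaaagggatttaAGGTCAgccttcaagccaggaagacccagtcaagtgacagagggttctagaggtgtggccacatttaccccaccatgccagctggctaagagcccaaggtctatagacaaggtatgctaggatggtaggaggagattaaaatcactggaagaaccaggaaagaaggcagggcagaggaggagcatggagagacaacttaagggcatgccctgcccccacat
Cyp2e1 had a TATA box and a TCF core, Cyp2c38 a TATA box and Cyp2f2 a nuclear receptor core. Of 50 of the 59 genes with a RefSeq promoter, 20 had a TATA box, which 12.4% of all 32851 promoters of that length had. A TCF core was in 6 of 17 promoters of called pericentral genes and 2 of 8 of called periportal genes, against 13.8% of all promoters. A nuclear receptor core was in 3 and 2 of them (14% of all), and an Ah receptor core in 1 and 1 (28.2% of all). A match in these letters is not a shown binding site.

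Whether these gradients differed between groups was tested directly, as a zone-by-group term. None of the 45 genes was called in any of the 3 contrasts (edgeR), with 4, 9 and 2 genes at an unadjusted p under 0.05 in RD tumour versus RD no tumour, WD tumour versus RD no tumour and WD tumour versus RD tumour. Called over all genes were 0.0321%, 0.161% and 0.0161%, and 4.33%, 6.16% and 4.86% had an unadjusted p under 0.05. DESeq2 called 0 of those to which it gave an adjusted p (0.0942%, 0.217% and 0.0241% of all genes). The zone difference of Cyp2c38 was 4.01 (log2) in RD no tumour, 2.68 in RD tumour and 2.81 in WD tumour (lowest adjusted p of its 3 contrasts 0.446). For Cyp3a11 it was 2.79, 1.1 and 1.61, with adjusted p = 0.183 against RD tumour and 0.278 against WD tumour. For Cyp2f2 it was -2.71, -1.69 and -3.39 (adjusted p = 0.292 for WD tumour versus RD tumour). With no filter on low counts, 4, 4 and 3 genes were called in the same contrasts, Cyp2c38, Cyp3a11 and Cyp2f2 among them (0.404%, 0.688% and 0.309% of all genes).

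The group comparisons asked what accompanies a tumour after the same diet reversal (RD tumour versus RD no tumour), what continued Western diet changes among tumour-bearing mice (WD tumour versus RD tumour), and, with diet and tumour both different, how WD tumour differs from RD no tumour. In hepatocyte-gated nuclei 54 of the 59 genes could be tested and none was called by edgeR in any of the 3 contrasts (0% of all 16132 genes in each). At an unadjusted p under 0.05 stood 7, 6 and 13 of the 54 in RD tumour versus RD no tumour, WD tumour versus RD no tumour and WD tumour versus RD tumour, beside 13.5%, 2.62% and 12.8% of all genes. DESeq2 called 2, 0 and 3 of them (1.98%, 0.102% and 1.66% of all genes). Whole libraries also gave 0 calls in each contrast with edgeR (4, 3 and 4 of 58 genes at an unadjusted p under 0.05, beside 6.7%, 2.75% and 7.56% of all genes). DESeq2 called 0, 1 and 2 there (0.338%, 0.194% and 0.588% of all genes). Within a zone edgeR called 0 of 47 genes in each contrast. DESeq2 called 2, 1 and 3 in pericentral nuclei (0.244%, 0.0698% and 0.951% of all genes). In periportal nuclei it called 3, 1 and 4 (1.77%, 0.161% and 1.27%). With 2 or 3 mice a group only large and even differences could be called, and a missed threshold does not show that levels were alike. The 3 contrasts share their mice, so their values are given side by side and not as separate support.

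Between RD tumour and RD no tumour, the fitted log2 fold change in hepatocyte-gated nuclei was below 0 for 44 of 54 genes, with a median of -1.01, beside 51.3% below 0 and a median of -0.02 for all genes. Without RD tumour 1 the median was -0.62, with 37 of 54 below 0, and without RD tumour 2 it was -2.23. Both RD tumour mice lay below all 3 RD no tumour mice for 10 genes (6.98% of all genes) and above them for 3 (23.1% of all genes). The 10 lower genes were Cyp2c54, Cyp2c50, Cyp2c37, Cyp3a25, Cyp2d9, Cyp2d10, Cyp2d26, Cyp2d40, Cyp2j6 and Cyp4f13. Leaving out RD tumour 2, so that RD tumour 1 stood alone and was assumed to vary like the other groups, edgeR called 20 genes, all lower (23.9% of all genes, in either direction). RD tumour 1 also had the most UMIs of neutrophil and macrophage markers in its hepatocyte-gated nuclei: those of 8 neutrophil markers summed to 1215 CPM and those of 12 macrophage markers to 1811, with no marker at 0. The neutrophil sums were 279, 15.0 and 11.5 in the RD no tumour mice, 50.7 in RD tumour 2 and 31.9, 86.3 and 11.7 in the WD tumour mice. The macrophage sums were 558, 206 and 154, 447 and 205, 548 and 188, and up to 2 markers of a list were at 0 in a mouse. Markers of 3 other classes were higher in both RD tumour mice than in the other 6. The 12 endothelial markers summed to 452 and 502 CPM in RD tumour 1 and 2 against 110.5 to 301. The 11 stellate markers summed to 192 and 359 against 68.3 to 144. The 8 B cell markers summed to 52.4 and 104 against 9.05 to 41.1. None of these markers was at 0 in the RD tumour mice. The T/NK and cholangiocyte sums showed no such separation. The 10 general hepatocyte genes summed to 23543 and 18988 CPM in RD tumour 1 and 2. These were below the 26005 to 29379.5 of RD no tumour mice and overlapped the 22445 to 28415 of WD tumour mice. The part of these cells in the P450 levels was not tested.

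Among genes with at least 100 hepatocyte UMIs and groups that did not overlap, the largest differences were in neighbouring Cyp2c genes, a group of steroid and arachidonic acid oxidases. Over all 54 tested genes the log2 fold changes ran from -3.31 to 2.78. Cyp2c54 (chromosome 19, 40037940 to 40073827) stood at 116, 164 and 270.2 CPM in RD no tumour 1, 2 and 3, 6.34 and 50.6 in RD tumour 1 and 2, and 190.0, 142 and 167 in WD tumour 1, 2 and 3. Both RD tumour mice were lowest, and WD tumour mice lay within the range of RD no tumour mice (log2 fold change -2.88 ± 0.82 SE, edgeR adjusted p = 0.350, unadjusted p = 0.00777; without RD tumour 1, -2.07, adjusted p = 0.502; DESeq2 adjusted p = 0.0151). Cyp2c50 (chromosome 19, 40089688 to 40113950) stood at 152, 183 and 198 CPM in RD no tumour 1, 2 and 3, 14.4 and 54.5 in RD tumour 1 and 2, and 186, 133 and 158 in WD tumour 1, 2 and 3. The RD no tumour and WD tumour mice overlapped and both RD tumour mice were far below them (log2 fold change -2.57 ± 0.56 SE, edgeR adjusted p = 0.350, unadjusted p = 0.00179; without RD tumour 1, -1.92, adjusted p = 0.308; DESeq2 adjusted p = 0.00142). Both RD tumour mice were also the lowest in each zone. Pericentral Cyp2c50 was 234, 288 and 313, then 33.6 and 79.2, then 288, 159 and 259 CPM in RD no tumour, RD tumour and WD tumour mice, while periportal Cyp2c50 was 123, 139 and 146, then 11.7 and 37.7, then 141, 113 and 119. Cyp2c37 (chromosome 19, 39992424 to 40012243) stood at 57.7, 148 and 185 CPM in RD no tumour 1, 2 and 3, 9.01 and 51.0 in RD tumour 1 and 2, and 149, 49.2 and 96.5 in WD tumour 1, 2 and 3. RD tumour 2 lay between WD tumour 2 and RD no tumour 1, so that only RD tumour 1 stood clearly apart (log2 fold change -2.32 ± 0.87 SE, edgeR adjusted p = 0.359, unadjusted p = 0.0282). Of the end stretches of Cyp2c54, 20.6% are in transcripts of Cyp2c37. Of those of Cyp2c37, 21.1% are in transcripts of Cyp2c50. Reads from such stretches cannot be given to 1 gene, so the levels of Cyp2c54 and Cyp2c37 are uncertain. Cyp2c50 had no shared stretch in its own last 500 bases. Cyp3a25 (chromosome 5, 145977194 to 146009618) stood at 2042, 2014 and 6325 CPM in RD no tumour 1, 2 and 3, 759 and 1929 in RD tumour 1 and 2, and 2636, 596 and 2648 in WD tumour 1, 2 and 3. RD tumour 2 was just below RD no tumour 2 and 1, and RD tumour 1 and WD tumour 2 were far lower (log2 fold change -1.59 ± 0.88 SE, edgeR adjusted p = 0.433, unadjusted p = 0.109). Without RD tumour 1 the log2 fold change of Cyp3a25 was -1.06.

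**Figure D3:**
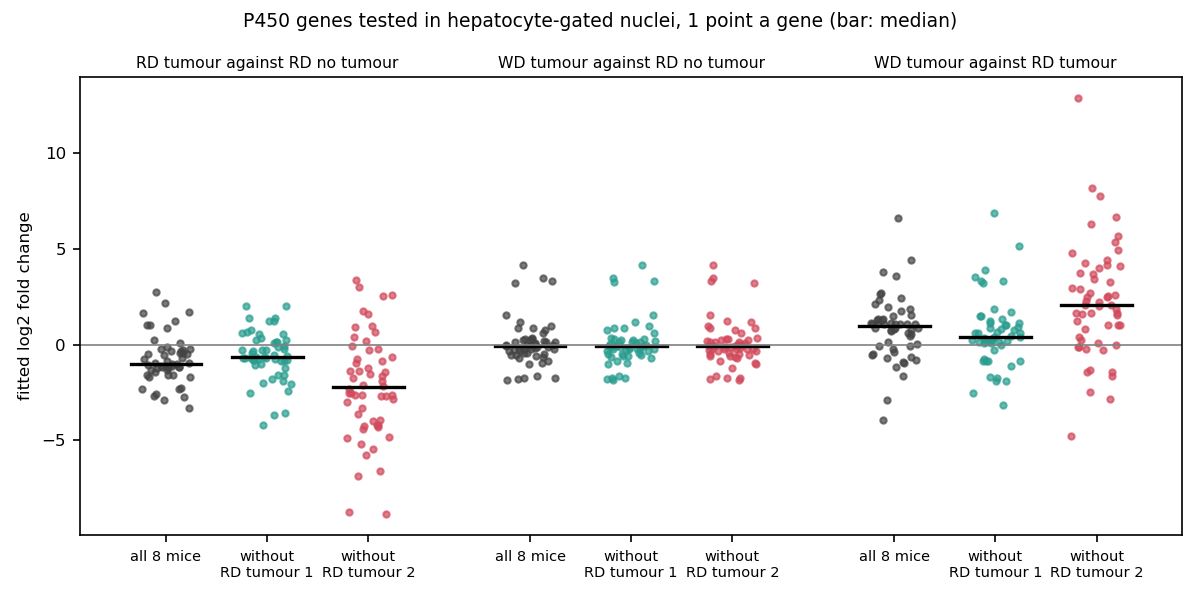
Fitted log2 fold changes of the P450 genes tested in hepatocyte-gated nuclei for the 3 group contrasts, with all 8 mice (grey), without RD tumour 1 (green) and without RD tumour 2 (red). Each point is a gene and the bar is their median. For RD tumour versus RD no tumour the median moves from -1.01 to -0.62 without RD tumour 1 and to -2.23 without RD tumour 2.

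Between WD tumour and RD no tumour the P450 genes had a median near that of all genes (median log2 fold change -0.09 over 54 genes, -0.01 over all genes). The sign of that median rested on single mice. It was -0.40 without WD tumour 1, -0.31 without RD no tumour 1, 0.10 without RD no tumour 3 and 0.08 without WD tumour 2. In hepatocyte-gated nuclei the groups did not overlap for 2 genes that were higher (7.43% of all genes) and 2 that were lower (3.98%), shares of the 54 no higher than over all genes. The lower genes were Cyp2d9 and Cyp2r1, and the higher ones Cyp2b9 and Cyp2c70. Cyp2d9 is known as a male-typical, growth-hormone-dependent gene of mouse liver and Cyp2b9 as a female-typical one.

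Cyp2d9 (chromosome 15, 82433437 to 82456845) stood at 322, 346 and 230.0 CPM in RD no tumour 1, 2 and 3, 58.1 and 199.8 in RD tumour 1 and 2, and 129, 108 and 58.8 in WD tumour 1, 2 and 3. All 3 WD tumour mice were below all 3 RD no tumour mice, and so were both RD tumour mice (log2 fold change -1.65 ± 0.50 SE, edgeR adjusted p = 1.000, unadjusted p = 0.0111 for WD tumour versus RD no tumour). It was lower in WD tumour in both zones: 207, 137 and 94.4 against 434, 699.6 and 361 CPM in pericentral nuclei, and 87.0, 83.8 and 45.8 against 278, 217 and 170.3 in periportal nuclei, where DESeq2 called it. Its level is uncertain, since 23.9% of its end stretches are shared and reads from these cannot be given to 1 gene. Cyp2b9 (chromosome 7, 26173411 to 26210661) stood at 0.107, 8.22 and 11.5 CPM in RD no tumour 1, 2 and 3, 0 and 12.1 in RD tumour 1 and 2, and 135, 22.6 and 219.9 in WD tumour 1, 2 and 3. The WD tumour mice were the 3 highest, and WD tumour 2 lay far nearer to the other groups than WD tumour 1 and 3 did (log2 fold change 4.18 ± 1.5 SE, edgeR adjusted p = 1.000, unadjusted p = 0.0235). RD tumour 1 had 0 of 2996374 UMIs, which allows up to 1.00 CPM for counting error, and RD no tumour 1 had 1 UMI. Pericentral nuclei held 243, 12.2 and 218 CPM in WD tumour and 0.452, 1.28 and 4.42 in RD no tumour, and DESeq2 called the difference there.

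The promoters of these genes with opposite direction are shown with the same motifs in capitals.
Cyp2b9 (chr7:26173159-26173408, plus strand): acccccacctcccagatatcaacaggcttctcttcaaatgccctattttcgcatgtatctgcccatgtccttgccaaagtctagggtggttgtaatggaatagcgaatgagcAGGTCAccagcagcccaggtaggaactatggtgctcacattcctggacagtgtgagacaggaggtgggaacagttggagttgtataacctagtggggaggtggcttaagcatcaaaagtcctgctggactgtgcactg
Cyp2d9 (chr15:82452127-82452376, plus strand): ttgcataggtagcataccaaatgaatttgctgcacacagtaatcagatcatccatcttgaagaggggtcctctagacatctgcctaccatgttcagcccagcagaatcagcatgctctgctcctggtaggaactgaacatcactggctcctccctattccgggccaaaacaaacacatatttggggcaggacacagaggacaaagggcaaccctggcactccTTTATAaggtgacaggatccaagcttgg
Cyp2b9 had a nuclear receptor core and Cyp2d9 a TATA box (on the minus strand as written), and neither held the STAT5 letters, which 7.02% of all promoters and 3 of the 50 P450 promoters held. The RefSeq start of Cyp2d9 lies 18940 bases downstream of the start of the gene in GENCODE.

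A list of 8 P450 genes known to be higher in females held 7 of the 59 genes, Cyp3a16 being outside them, and 6 could be tested in hepatocyte-gated nuclei. Against RD no tumour, 5 of the 6 had a fitted log2 fold change above 0 in WD tumour and none was called, with a median of 2.10. Cyp2b9 (4.18 ± 1.5 SE), Cyp2b13 (3.49 ± 1.28) and Cyp2a4 (3.25 ± 1.24) were the largest, then Cyp2c69 (0.96 ± 1.30), Cyp2c40 (0.22 ± 0.89) and Cyp2c39 (-0.08 ± 0.87). Cyp2b13 had 21, 3 and 54 UMIs in WD tumour and 1, 0 and 8 in RD no tumour, and Cyp2a4 8, 1 and 31 and 0, 1 and 4, so both are thinly counted. For RD tumour versus RD no tumour 1 of the 6 was above 0 (median -0.75), and for WD tumour versus RD tumour all 6 (median 3.04), none called. Whole libraries, where all 7 could be tested, differed from this. There 4 of 7 were above 0 for RD tumour versus RD no tumour (median 0.16). For WD tumour, 6 were above 0 versus RD no tumour (median 1.37) and 5 versus RD tumour (median 1.78), none called by edgeR. The male-biased genes Cyp2d9 and Cyp2u1 were -1.65 and -1.75 in WD tumour versus RD no tumour, neither called. Cyp2u1 stood at 2.36, 7.80 and 9.94 CPM in RD no tumour 1, 2 and 3, 0.667 and 13.2 in RD tumour 1 and 2, and 2.69, 1.25 and 2.32 in WD tumour 1, 2 and 3, overlapping in all 3 contrasts.

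Cyp2c70 (chromosome 19, 40153353 to 40187333), the muricholic acid enzyme, stood at 230.3, 50.6 and 159 CPM in RD no tumour 1, 2 and 3, 108 and 47.6 in RD tumour 1 and 2, and 467, 373 and 458 in WD tumour 1, 2 and 3. Each WD tumour mouse exceeded every mouse of the other groups, by 1.53 ± 0.53 SE (log2) over RD no tumour (edgeR adjusted p = 1.000, unadjusted p = 0.0196) and 2.68 ± 0.65 over RD tumour (edgeR adjusted p = 0.386, DESeq2 adjusted p = 0.00690). The groups were also apart in both zones and in whole libraries, where WD tumour mice had 358, 261 and 407 and the other mice 188, 49.8, 154, 161 and 52.6 CPM. Cyp2r1 (chromosome 7, 114549682 to 114562972), which starts the activation of vitamin D, was lower in WD tumour by a small difference, at 13.2, 10.8 and 11.2 CPM in RD no tumour 1, 2 and 3, 12 and 8.11 in RD tumour 1 and 2, and 5.59, 10.2 and 9.16 in WD tumour 1, 2 and 3 (log2 fold change -0.55 ± 0.31 SE, edgeR adjusted p = 1.000, unadjusted p = 0.113). RD tumour 1 lay among the RD no tumour mice and RD tumour 2 among the WD tumour mice.

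Between WD tumour and RD tumour, 39 of 54 genes had a fitted log2 fold change above 0 (median 0.98, all genes -0.02, with 48.8% of them above 0). WD tumour mice lay above both RD tumour mice for 11 genes (11% of all genes) and below them for 3 (20.3%). Cyp2a22 was the largest, at 0.321, 1.56 and 17.0 CPM in RD no tumour 1, 2 and 3, 1.00 and 0.616 in RD tumour 1 and 2, and 93.8, 7.62 and 96.6 in WD tumour 1, 2 and 3. The RD tumour values rest on 3 and 6 UMIs. WD tumour 1 and 3 were high, and WD tumour 2 was below RD no tumour 3 (log2 fold change 6.64 ± 2.04 SE, edgeR adjusted p = 0.386, unadjusted p = 0.0116). WD tumour 1 and 3, which also had the highest Cyp2b9, were the mice with the highest median mitochondrial share in hepatocyte-gated nuclei (2.26 and 2.24%, against 0.546 to 1.58% in the other mice). Restricted to nuclei with no more than 5% of UMIs mitochondrial, the log2 fold changes over RD tumour were 6.94 for Cyp2a22 and 4.65 for Cyp2b9. WD tumour 1 and 3 then had 648 and 1160 hepatocyte-gated nuclei, against 834 and 1553 without the limit. The part of the mitochondrial share in these levels was not tested. Among genes with at least 100 UMIs and groups that do not overlap, Cyp2b9 followed (4.41 ± 1.81 SE), Cyp2c54 (2.68 ± 0.81), Cyp2c70 (2.68 ± 0.65) and Cyp2c40 (2.47 ± 1.17), the last from few counts (13 and 8 UMIs in the RD tumour mice). Cyp2b13 (3.79 ± 1.62, from 91 UMIs over the 8 mice) and Cyp2c69 (3.62 ± 1.81, groups overlapping) also had larger values than Cyp2c54. The endothelial, stellate and B cell marker sums, higher in both RD tumour mice, move with this comparison too, and their part was not tested. Without RD tumour 1 the median over the genes was 0.41, and without RD tumour 2 it was 2.08, with 18 genes called (22.6% of all genes).

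**Figure D4:**
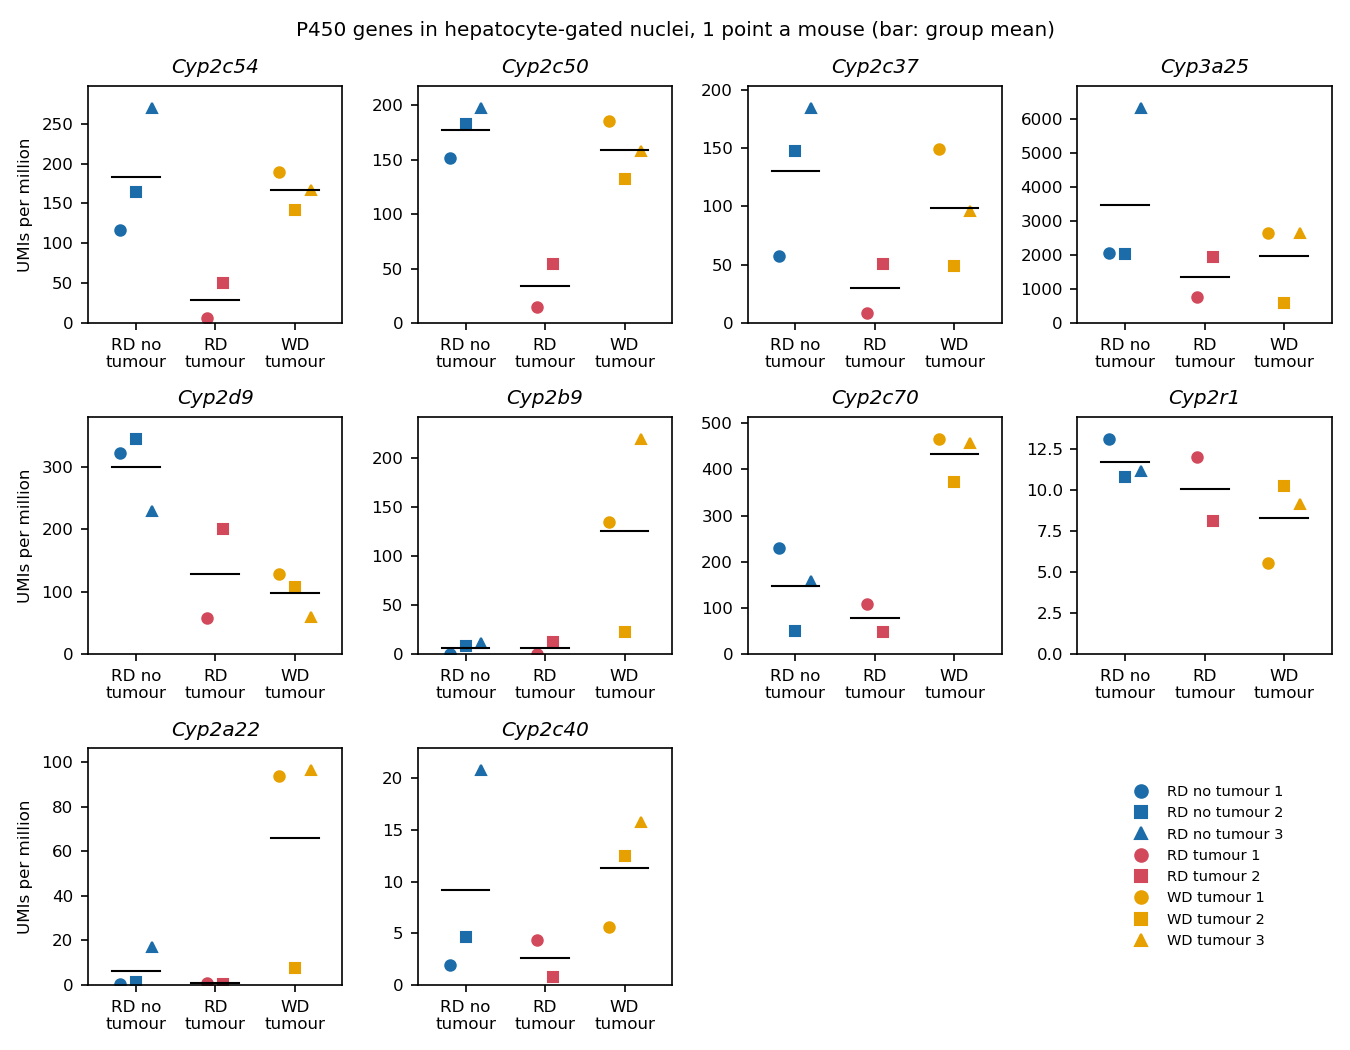
CPM of 10 P450 genes in hepatocyte-gated nuclei, 1 point a mouse and a bar at the group mean, on linear axes from 0. The genes are those with the largest fold changes among genes with at least 100 hepatocyte UMIs whose groups did not overlap. Cyp2c54 and Cyp2c50 are lowest in the RD tumour mice, Cyp2d9 is highest in the RD no tumour mice, and Cyp2b9 and Cyp2c70 are highest in the WD tumour mice.

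The targets of PPAR alpha, the fatty acid hydroxylases Cyp4a10, Cyp4a14, Cyp4a31 and Cyp4a32, ranged widely within each group. Cyp4a14 stood at 46.2, 606 and 840.4 CPM in RD no tumour 1, 2 and 3, 1.33 and 1372 in RD tumour 1 and 2, and 509, 116 and 343 in WD tumour 1, 2 and 3, so that the highest and the lowest mouse of the study were the 2 mice of the RD tumour group. None of the 4 genes was called, and their median log2 fold change was -0.37, -0.57 and -0.37 in RD tumour versus RD no tumour, WD tumour versus RD no tumour and WD tumour versus RD tumour. Of the genes induced through CAR and PXR, Cyp3a11 stood at 44.7, 453 and 186 CPM in RD no tumour 1, 2 and 3, 158 and 225 in RD tumour 1 and 2, and 841, 15.1 and 367 in WD tumour 1, 2 and 3, Cyp2c29 was -0.23 (log2) in WD tumour versus RD no tumour, and Cyp2b10 had 27 hepatocyte UMIs in all. None of the tested genes of the list, Cyp3a11 and Cyp2c29, was called between groups, while both were called pericentral. Of the Ah receptor targets, Cyp1a1 was not among the 59 genes, and neither Cyp1b1 nor Cyp1a2 was called in any group contrast. Cyp1a2 stood at 5.35, 25 and 16 CPM in RD no tumour 1, 2 and 3, 2.67 and 11.1 in RD tumour 1 and 2, and 16.1, 5.26 and 19.4 in WD tumour 1, 2 and 3. Cyp2e1 stood at 628, 1401 and 1451 CPM in RD no tumour 1, 2 and 3, 90.1 and 737 in RD tumour 1 and 2, and 2172, 639 and 1492 in WD tumour 1, 2 and 3 , with WD tumour and RD no tumour mice overlapping and RD tumour 1 far below the rest.

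Some P450 genes had a higher level in another gated class than in hepatocyte-gated nuclei, which was described without a test. Cyp4b1 stood at 171 CPM (21.3 to 244 over the mice) in endothelial-gated nuclei, pooled over mice, against 7.2 CPM (2.35 to 17.2 over the mice) in hepatocyte-gated nuclei, 23.8 times as much and higher in 8 of 8 mice. Cyp1b1, an oestrogen and hydrocarbon hydroxylase, stood at 10.1 CPM (2.80 to 22.2 over the mice) in stellate and 5.67 in endothelial nuclei, against 0.584 in hepatocyte nuclei. Cyp4f18, which inactivates leukotriene B in neutrophils, stood at 55.2 CPM (6.85 to 102 over the mice) in neutrophil nuclei and 13.7 in B nuclei, against 0.552 in hepatocyte nuclei. Its neutrophil value rests on 68 UMIs. Cyp4f16 was highest in macrophage nuclei at 19.8 CPM (11.7 to 31.1 over the mice), again above hepatocyte nuclei in 8 of 8 mice. Cyp2j6 was highest in cholangiocyte nuclei at 58.4, 2.35 times the hepatocyte level and above it in 7 of 8 mice. Some genes typical of hepatocytes reached the hepatocyte level in at least 1 other class. Cyp2e1 had 1415 in T/NK nuclei, 1.27 times the hepatocyte-gated value, and Cyp3a11, Cyp2c50, Cyp1a2, Cyp2d10, Cyp4v3, Cyp4f13 and Cyp4f14 were at 1.05 to 1.31 times in their highest other class. Whether such values come from free hepatocyte RNA or from expression in those classes was not tested. Cyp2u1 was 1.44 times as high in stellate as in hepatocyte nuclei, in 6 of 8 mice, from 73 UMIs.

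**Figure D5:**
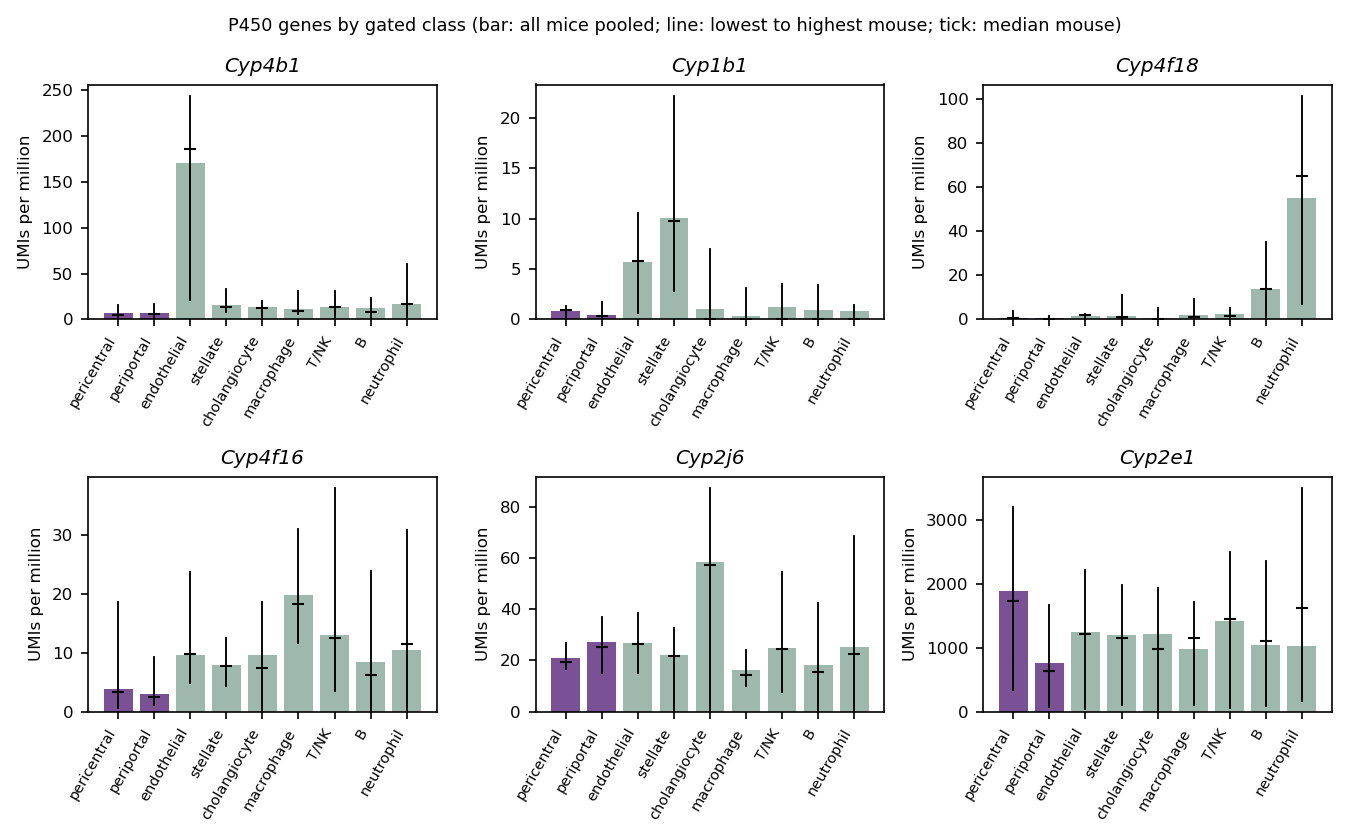
CPM of 6 P450 genes by gated class. Bars pool the 8 mice, lines run from the lowest to the highest mouse and ticks mark the median mouse, with the hepatocyte zones in purple. Cyp4b1 is highest in endothelial, Cyp1b1 in stellate, Cyp4f18 in neutrophil, Cyp4f16 in macrophage and Cyp2j6 in cholangiocyte nuclei. Cyp2e1, a gene typical of hepatocytes, has the other classes between its pericentral and periportal values.

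The partners and regulators of these enzymes were taken from a list of 30 genes. Of 29 tested between zones, 6 were higher in pericentral and 3 in periportal nuclei, beside the 6.74% and 7.84% of all genes above. The electron donors Por (log2 fold change 0.42 ± 0.09 SE, adjusted p = 0.00409) and Cyb5a (0.46 ± 0.08 SE, adjusted p = 0.000678) and the outer mitochondrial cytochrome b5, Cyb5b (0.33 ± 0.06 SE, adjusted p = 0.00195), were pericentral. So were Ahr, the receptor that induces Cyp1 genes (1.46 ± 0.17 SE, adjusted p = 1.92e-05, 8 of 8 mice), Fmo5, another oxygenase (0.55 ± 0.11 SE, adjusted p = 0.00204), and Socs2, a target and inhibitor of growth hormone signalling (0.62 ± 0.14 SE, adjusted p = 0.00771). The transcription factors Onecut1 (-1.04 ± 0.15 SE, adjusted p = 0.000127, 8 of 8 mice) and Hnf4a (-0.31 ± 0.06 SE, adjusted p = 0.00368, 8 of 8 mice) and the Ah receptor repressor Tiparp (-0.39 ± 0.11 SE, adjusted p = 0.0241) were periportal. Nr1i3, the gene of CAR (0.34 ± 0.14 SE, adjusted p = 0.129), Nr1i2, that of PXR (0.01 ± 0.08 SE, adjusted p = 0.966), and Ppara (-0.05 ± 0.09 SE, adjusted p = 0.802) were not called. Between groups none of the 29 was called in hepatocyte-gated nuclei by edgeR, with 4, 0 and 7 at an unadjusted p under 0.05 in RD tumour versus RD no tumour, WD tumour versus RD no tumour and WD tumour versus RD tumour. Over all genes, 13.5%, 2.62% and 12.8% had such a p. The median log2 fold changes of the 29 genes were -0.59, 0.30 and 0.71, beside -0.02, -0.01 and -0.02 for all genes.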

How the data were processed

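Livers of 8 mice were measured by single-nucleus RNA-seq (Chromium 3′ v3.1, per the labels), 1 library a mouse. The authors deposited filtered matrices of UMI counts per gene and barcode, made with Cell Ranger 7.0.0 on mm10 per the submitters' processing notes. Whether intronic reads were counted, and filters on barcodes, are not given in the sources used here. From these deposited counts, barcodes with at least 300 genes were kept. Library pairs shared 8 to 62 barcodes (at most 0.676% of the smaller library). A nucleus was gated to a class other than hepatocytes when at least 3 UMIs from at least 2 of its markers exceeded the library's own background (Poisson tail under 0.0001). Nuclei gated to several such classes were left out. The zone gates took nuclei gated to no such class, with UMIs from at least 2 markers of the zone and no minimum of UMIs. Their background was the rate of the zone markers in nuclei of the same library gated to exactly 1 other class (Poisson tail under 0.001). Gate limits were set on marker counts without reference to P450 values. Doublets were not otherwise removed. Scrublet scores (scanpy 1.11.5) served in an alternative that left out 0.8% per 1000 barcodes.

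UMIs were summed per mouse and gate, and levels are CPM, UMIs per 1e6 of that sum. Group and zone contrasts were fitted over all genes with edgeR 4.0.16 (R 4.3.3; TMM, filterByExpr, quasi-likelihood test, Benjamini-Hochberg adjustment, threshold 0.05), with DESeq2 1.42.0 as an alternative. Zone fits had the mouse as block and left out gate genes. The scripts were tested on simulated data with known changes. Other alternatives changed the filters, the gate, depth, single mice and the replicate number. The gate from Apob, Cps1 and Abcb11 and the thinning to equal depth were added after seeing the data. Confidence limits on 0 counts take 3 counts and cover counting error only.

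Named genes were the most counted of each subfamily, up to 5 per group contrast with at least 100 hepatocyte UMIs, groups that did not overlap and the largest fold changes, up to 6 per zone direction among those called, genes past the threshold in a group contrast, and genes highest outside hepatocytes with at least 50 UMIs there. Other genes named are from lists of known targets, partners or neighbours. The genes and lists were chosen with earlier results of these data known. Promoters are from RefSeq (GRCm38.p6), in which 50 of the 59 genes had one, and positions from GENCODE M21.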

Additional observations from a re-analysis of the deposited data

Results flagged for a closer look

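RD tumour 1 lay far from the other 7 mice in the ratio of pericentral to periportal level for 5 of the 12 genes with the largest zone differences. Its distance to the next mouse exceeded Dixon's limit at 95% for a group of 8, which chance passes in about 1 of 20 groups. The log2 ratio (CPM + 1) in this mouse was 0.0131 for Cyp2c38, 0.305 for Cyp2c37, 0.365 for Cyp2f2, 1.75 for Cyp2u1 and -3.96 for Cyp2j9. In the other 7 mice Cyp2c38 ranged from 2.41 to 4.28, and Cyp2f2 from -3.55 to -1.72. The pericentral sum of RD tumour 1 came from 68 nuclei and 267723 UMIs, in which Cyp2u1 had 1 UMI and Cyp2j9 had 0, which allows up to 11.2 CPM. Without this mouse 29 of 45 genes were called between zones, against 30 with it.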

How the results depend on the processing

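The 30 zone calls came to 27 with DESeq2, 31 with no filter on low counts, 24 to 29 without 1 mouse, 29 with a zone gate that asked for 1 more marker UMI, 30 in nuclei of at most 5% mitochondrial UMIs and 27 with both zones of a mouse thinned to the same depth. Between groups, edgeR called 0 genes in every compartment and contrast, and also with no filter on low counts, with barcodes of at least 500 genes, with at most 5% mitochondrial UMIs, without the highest Scrublet scores, with the stricter gate and with a hepatocyte gate from Apob, Cps1 and Abcb11, wherever these were run. DESeq2 called 1 and 2 genes in whole libraries (WD tumour versus RD no tumour and versus RD tumour), 2 and 3 in hepatocyte-gated nuclei (RD tumour versus RD no tumour, WD tumour versus RD tumour), and 2, 1 and 3 in pericentral and 3, 1 and 4 in periportal nuclei over the 3 contrasts. The genes were Cyp2c50, Cyp2c54, Cyp2c70, Cyp2b9, Cyp2b13, Cyp2a22 and Cyp2d9. Leaving out 1 mouse gave 0 to 16 and 0 to 15 calls in whole libraries for RD tumour versus RD no tumour and WD tumour versus RD tumour, 0 to 20 and 0 to 18 in hepatocyte-gated, 0 to 10 and 0 to 9 in pericentral and 0 to 20 and 0 to 16 in periportal nuclei, each upper value without RD tumour 2, where RD tumour 1 stood alone. Differences of the zone contrast between groups went from 0 calls to 4, 4 and 3 with no filter on low counts, and to 0 to 1 in RD tumour versus RD no tumour (1 without RD no tumour 3 or RD tumour 2) and in WD tumour versus RD tumour (1 without RD no tumour 1). The upper group counts without RD tumour 2 rest on RD tumour 1 alone. In hepatocyte-gated nuclei those fits also called a large share of all genes, as given with the comparisons above. That share is not given for the other sums, so their upper counts are not read as a result particular to P450 genes. The cause of these changes in calls was not tested.

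Each alternative was tabulated for 14 group differences and 12 zone differences, and none changed direction. The group differences were chosen for at least 100 hepatocyte UMIs, groups that did not overlap and the largest fold changes. The zone differences were the largest among those called. This choice from the same data largely fixes their direction, so its staying the same is not support for them. Of the 30 zone calls 8 were lost in 1 or more fits, as given beside them. With the replicate number of the labels as a block (replicate block), 0 genes were called in each compartment and contrast. Whether the numbers pair the mice is not known. Of 7 same-numbered pairs 3 had deviations from their group means that correlated above 0.1 over 16487 genes, with a range of -0.622 to 0.468. The RD tumour mice deviate from their mean in exact mirror image, and with so few mice this check cannot decide it. Depth limits the genes of few counts: 14 genes could not be tested between zones, and 3 counts came to 0.817 to 11.2 CPM in pericentral sums.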

Other observations

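P450 genes that did not separate the groups still differed widely among mice. In hepatocyte-gated nuclei the 3 lowest mice were RD tumour 1, RD no tumour 1 and WD tumour 2, 1 of each group, for Cyp2e1 (90.1, 628 and 639 CPM, against 737 or more in the other 5 mice), for Cyp2f2 (8.01, 55.7 and 15.5, against 121 or more), for Cyp1a2 (2.67, 5.35 and 5.26, against 11.1 or more), and for Cyp4a14 (1.33, 46.2 and 116, against 343 or more). Cyp2a5 had low values in RD no tumour 1 (5.35) and WD tumour 2 (6.92). The whole libraries of these 3 mice also held the most UMIs of the 12 macrophage markers (3261, 1551 and 1535 CPM in RD tumour 1, RD no tumour 1 and WD tumour 2) and of the 8 neutrophil markers (2271, 724 and 197). In the other mice, RD no tumour 2 and 3, RD tumour 2 and WD tumour 1 and 3, the macrophage sums were 835, 439, 865, 659 and 678 and the neutrophil sums 45.1, 29.3, 100, 91.8 and 35.7. The part of either set of markers in these levels was not tested. Genes without this order included Cyp4v3 (44.4, 61.8, 81.5, 65.7, 54.7, 62.5, 52.3 and 47.4 CPM in RD no tumour 1 to 3, RD tumour 1 and 2 and WD tumour 1 to 3), which lay within a narrow range in all 8 mice. Cyp2a12, Cyp4f15, Cyp2d26, Cyp2d9, Cyp2c70 and Cyp2r1 did not have it either. For Cyp2d26, Cyp2d9, Cyp2c70 and Cyp2r1 the groups did not overlap in at least 1 contrast, as given above. These genes and mice were singled out after their values were seen.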
